A study of Homo sapiens with 12 samples.

Results

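The 9 genes described here encode enzymes of serine synthesis and of folate one-carbon metabolism, and they were followed in the transcriptome of carmofur-treated glioblastoma cells. The rule that picks them is their place in the pathway and names no measured value, but the choice was made with earlier results of these data known. They were matched by symbol to the Ensembl identifiers of the count table, in which they are 9 of 60107. RNA was collected from U251, an established human glioblastoma line, in 12 libraries of 4 groups with 3 libraries each. Cells labeled U251P and cells labeled U251T were each given vehicle (DMSO) or carmofur, a fluorouracil derivative that inhibits acid ceramidase, and the labels do not say what P and T stand for. For all 4 groups the labels give DMEM/F12, a medium that contains serine and glycine, with serum, growth factors and a B27-type supplement. The study's methods instead keep the lines in a serum-free form of it and plate these cells in DMEM/F12 with serum. They were deprived of serum for 16 h and then kept for 24 h in complete medium with the drug or the vehicle. The study's methods give a dose of 5 µM and place carmofur in the starvation step as well, whereas the labels place it in the final 24 h. The labels do not say whether replicates were separate cultures. The study's methods speak of biological triplicates for its experiments in general and do not tie them to these libraries, so that p-values may measure only the spread between libraries. The design asks which transcripts change with carmofur, a drug under which cell migration was also studied.

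Serine is made from an intermediate of glycolysis in a short pathway. PHGDH oxidizes phosphoglycerate, PSAT1 transfers an amino group to the product and PSPH removes the phosphate. Serine hydroxymethyltransferases then move a carbon from serine onto tetrahydrofolate and leave glycine, SHMT1 in the cytosol and nucleus and SHMT2 in mitochondria. In mitochondria MTHFD2 oxidizes the folate-bound carbon, MTHFD1L releases it as formate, and ALDH1L2 can instead oxidize it to CO2 while making NADPH. MTHFD1 attaches formate to folate again in the cytosol. The carbon is used to build purines, thymidylate and methionine, and many of these genes are known targets of ATF4, the transcription factor of the amino acid response. Glioblastoma cells are known to use mitochondrial SHMT2 in poorly perfused tumor tissue.

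On GRCh38 (GENCODE release 29), PHGDH (ENSG00000092621) lies at chr1:119648411-119744226 on the plus strand, PSAT1 (ENSG00000135069) at chr9:78297143-78330093 on the plus strand and PSPH (ENSG00000146733) at chr7:56011051-56051604 on the minus strand. SHMT1 (ENSG00000176974) lies at chr17:18327860-18363563 on the minus strand and SHMT2 (ENSG00000182199) at chr12:57229327-57234935 on the plus strand. The other folate enzymes are MTHFD1 (ENSG00000100714) at chr14:64388031-64463457, MTHFD2 (ENSG00000065911) at chr2:74198562-74217565 and MTHFD1L (ENSG00000120254) at chr6:150865549-151101887, all on the plus strand, and ALDH1L2 (ENSG00000136010) at chr12:105019784-105084577 on the minus strand. Each of these spans is a whole gene with its exons and introns, and the 3′ tags counted here fall near the end of the transcript.

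Promoter windows, from 250 bases before to 50 bases after an annotated start (RefSeq, GRCh38.p14), were given for 6 of the 9 genes in 9 windows, and PSPH, SHMT2 and ALDH1L2 had none. The letters CCAAT, searched on both strands and added to the search after expression values had been seen, were found in 8 of the 9 windows and in all 6 genes, against 34.6% of 35116 windows of this length. Of these 8 windows 3 are overlapping MTHFD1L windows that hold the same CCAAT. The first sequence below is the 250 bases before the PSAT1 start (chr9:78296875-78297124, plus strand), shown because it holds this word 3 times and because PSAT1 was among those of the 9 whose level differed most between the lines. The second is the 237 bases upstream of the first SHMT1 exon (chr17:18363564-18363800, minus strand), shown because SHMT1 was the gene with the largest carmofur difference in U251T among the 5 of the 9 tested. Capitals mark CCAAT and its reverse complement ATTGG.
PSAT1: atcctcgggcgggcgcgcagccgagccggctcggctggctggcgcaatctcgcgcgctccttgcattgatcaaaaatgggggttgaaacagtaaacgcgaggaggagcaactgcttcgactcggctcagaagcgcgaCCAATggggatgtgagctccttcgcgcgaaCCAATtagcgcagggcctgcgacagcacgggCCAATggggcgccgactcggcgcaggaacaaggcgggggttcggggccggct
SHMT1: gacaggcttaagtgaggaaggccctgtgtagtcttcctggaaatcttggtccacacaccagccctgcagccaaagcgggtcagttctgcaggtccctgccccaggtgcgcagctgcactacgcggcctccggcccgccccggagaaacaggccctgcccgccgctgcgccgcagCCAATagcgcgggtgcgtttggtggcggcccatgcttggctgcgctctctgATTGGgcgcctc
The C/EBP-ATF response element, searched as TGATGNAA on both strands because ATF4 binds such sites, occurs in 3.62% of all windows. Among the 9 windows it was found in 3, all of MTHFD1L and all covering the same place (chr6:150866346-150866375, plus strand). The E-box CACGTG, the site of MYC and related factors, occurs in 7.26% of all windows and was found in 4 of the 9, in the same 3 windows of MTHFD1L (chr6:150866320-150866349, plus strand) and in 1 of MTHFD1 (chr14:64388326-64388355, plus strand). In these 30-base stretches capitals mark the matched letters.
MTHFD1L response element: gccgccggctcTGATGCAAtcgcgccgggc
MTHFD1L E-box: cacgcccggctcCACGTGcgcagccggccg
MTHFD1 E-box: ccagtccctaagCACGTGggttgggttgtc
A match describes letters in the window and is no evidence of binding.

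Libraries of the lines differed in more than depth, and this touches every U251T value below. Levels are given as CPM, the counts of a gene per 1000000 counts of its library. Total counts were between 3295045 and 6350873 in U251P and between 383633 and 2817379 in U251T, and the 9 genes together had a summed level of 679 to 1347 CPM and of 641 to 886 CPM. Annotated pseudogenes held 0.272 to 0.307% of the counts in U251P and 10.8 to 12.4% in U251T, and genes of the mitochondrial genome held 19.5 to 26.2% and 0.355 to 0.881%. Of 12 markers of glioma and astrocytic cells, 10 had more than 3 counts over the U251P libraries and 9 over the U251T libraries, where CHI3L1 and S100B were at 0. The levels of single markers differed widely, since NES was at 408 CPM in U251P and 0.631 CPM in U251T with vehicle and SOX2 at 126 CPM and 0, whereas PDPN was at 2.85 CPM and 678 CPM and GFAP at 0.101 CPM and 72.0 CPM. The summed level of 5 fibroblast and pericyte markers was 18.8 to 23.5 CPM in U251P, where 2 of the 5 had more than 3 counts, and 1744 to 2388 CPM in U251T, where 4 had (COL1A1, COL1A2, DCN and PDGFRB) and LUM was at 0. The summed levels of neuronal, immune, endothelial and epithelial markers were at most 33 CPM in any library of either line. Immune markers summed to 1.10 to 2.69 CPM in U251P and 8.52 to 21.2 CPM in U251T, and epithelial markers to 0 to 0.303 and 3.09 to 10.8 CPM. For neuronal markers the sums were 22.7 to 31.1 and 3.19 to 33.0 CPM, and for endothelial markers 0.303 to 0.987 and 0 to 0.927 CPM. What made the U251T libraries differ was not tested. The gene of acid ceramidase, ASAH1, stood at 36.5 ± 5.49 CPM with vehicle and 38.1 ± 7.32 CPM with carmofur in U251P (SD, n = 3 each), and at 8.72 ± 1.76 CPM and 9.51 ± 2.49 CPM in U251T.

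**Figure D1:**
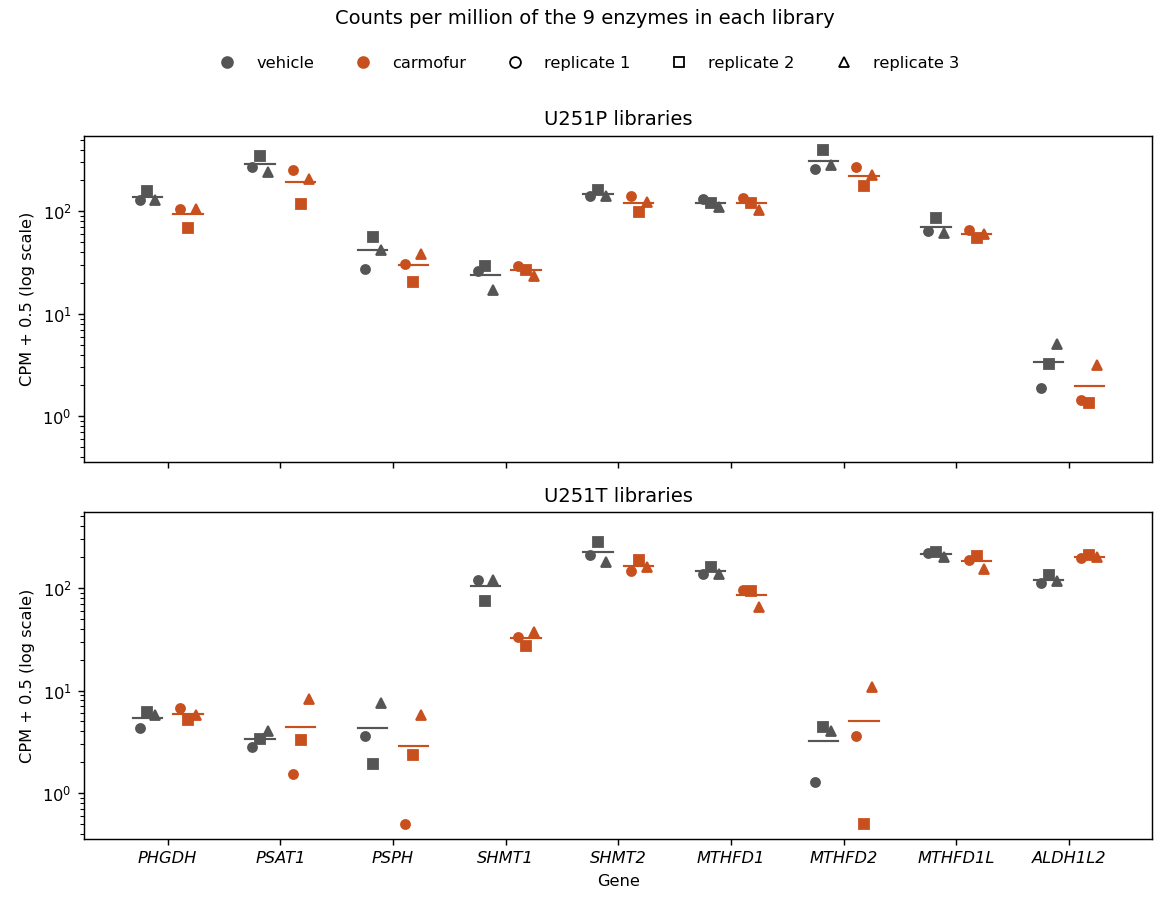
Level of each of the 9 genes in every library, as CPM plus 0.5 on a log axis, for U251P (top) and U251T (bottom). Gray symbols are vehicle and orange symbols are carmofur libraries, the shapes give the replicate number, and short lines are group means (n = 3). In U251P the square of carmofur replicate 2 is the lowest symbol for 7 of the 9 genes. In U251T, PHGDH, PSAT1, PSPH and MTHFD2 stay at or below 10.4 CPM in each library.

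To determine whether carmofur changed the pathway in U251P, its 3 carmofur libraries were compared with its 3 vehicle libraries. None of the 9 genes passed the test, and 0 of the 11426 genes tested in edgeR did (percentage called 0). DESeq2, run on 24349 genes, also called 0. The 3 serine synthesis genes and MTHFD2 had mean levels that were lower with carmofur, by 0.46 to 0.55 on the log2 scale, and SHMT1 and MTHFD1 had log2 fold changes of 0.20 and 0.00. A gene passed the test at an adjusted p under 0.05. In all, 7 of the 9 log2 fold changes were below 0, with a median of -0.46 against -0.00 over all genes tested. Before adjustment, 4 of the 9 (PHGDH, MTHFD2, PSAT1 and SHMT2) had p under 0.05, as had 402 of the 11426 genes (3.52%). The 9 genes were chosen with earlier results of these data known, so that these shares are no test of the pathway. The study itself lists PHGDH and PSAT1 among its differentially expressed genes for carmofur, at a looser unadjusted threshold. Log2 fold changes below come from edgeR's quasi-likelihood fit with TMM normalization, and all 9 genes had a Benjamini-Hochberg adjusted p of 0.999.

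PHGDH, which catalyzes the committed step of serine synthesis, was at 128, 156 and 129 CPM in vehicle replicates 1, 2 and 3 and at 106, 67.5 and 106 CPM in the carmofur replicates. Each carmofur library lay below each vehicle library, which held for PHGDH alone among the 9, and for 5.5% of all genes tested in this direction. The means were 137 ± 15.8 CPM and 93 ± 22.1 CPM (SD, n = 3 each). The log2 fold change was -0.54 (SE 0.145, unadjusted p = 0.00198, edgeR adjusted p = 0.999), the eighth smallest p-value of the comparison. PSAT1, the aminotransferase, was at 271, 346 and 239 CPM with vehicle and at 254, 117 and 205 CPM with carmofur. Carmofur replicate 1 lay within the vehicle range, so that the groups overlapped. Its log2 fold change was -0.55 (SE 0.194, unadjusted p = 0.0124 in edgeR). PSPH, the phosphatase of the last step, was at 27.1, 55.2 and 41.2 CPM with vehicle and at 30.1, 20.0 and 37.4 CPM with carmofur. Carmofur replicates 1 and 3 fell inside the vehicle range, and the log2 fold change was -0.47 (SE 0.237, unadjusted p = 0.0653 in edgeR). Without the filter on low counts, the edgeR adjusted p-value was 0.0227 for PHGDH and 0.00393 for PSAT1, which is the only alternative under which a gene of the 9 passed in U251P.

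SHMT2, the mitochondrial hydroxymethyltransferase, was at 141, 162 and 139 CPM with vehicle and at 141, 98.8 and 122 CPM with carmofur. The highest carmofur library equaled the middle vehicle library at this precision. The log2 fold change of SHMT2 was -0.26 (SE 0.119, unadjusted p = 0.0424 in edgeR). SHMT1, its cytosolic counterpart, was at 25.7, 28.5 and 16.5 CPM with vehicle and at 29, 26.5 and 22.9 CPM with carmofur. The groups overlapped, and the log2 fold change was 0.20 (SE 0.185, 95% interval -0.19 to 0.60).

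MTHFD2, the mitochondrial dehydrogenase of the folate cycle, was at 259, 391 and 285 CPM with vehicle and at 268, 175 and 223 CPM with carmofur. Carmofur replicates 2 and 3 lay below all vehicle libraries and replicate 1 did not. The log2 fold change was -0.46 (SE 0.150, unadjusted p = 0.00713 in edgeR). MTHFD1L, which releases formate, was at 63.4, 84.7 and 61.6 CPM with vehicle and at 65.3, 54.3 and 59.6 CPM with carmofur. Its log2 fold change of -0.19 (SE 0.131) had a 95% interval of -0.47 to 0.09. MTHFD1, the cytosolic enzyme that takes formate up, was at 131, 121 and 110 CPM with vehicle and at 134, 120 and 103 CPM with carmofur, so that the groups covered nearly the same range. The log2 fold change of MTHFD1 was 0.00 (SE 0.111) with a 95% interval of -0.23 to 0.24. ALDH1L2 was close to the lower limit of these libraries in U251P, with counts of 7, 9 and 24 in the vehicle libraries and of 6, 5 and 11 in the carmofur libraries. This is 1.38, 2.73 and 4.56 CPM against 0.945, 0.840 and 2.65 CPM, with overlap between the groups and a log2 fold change of -1.05 (SE 0.563).

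**Figure D2:**
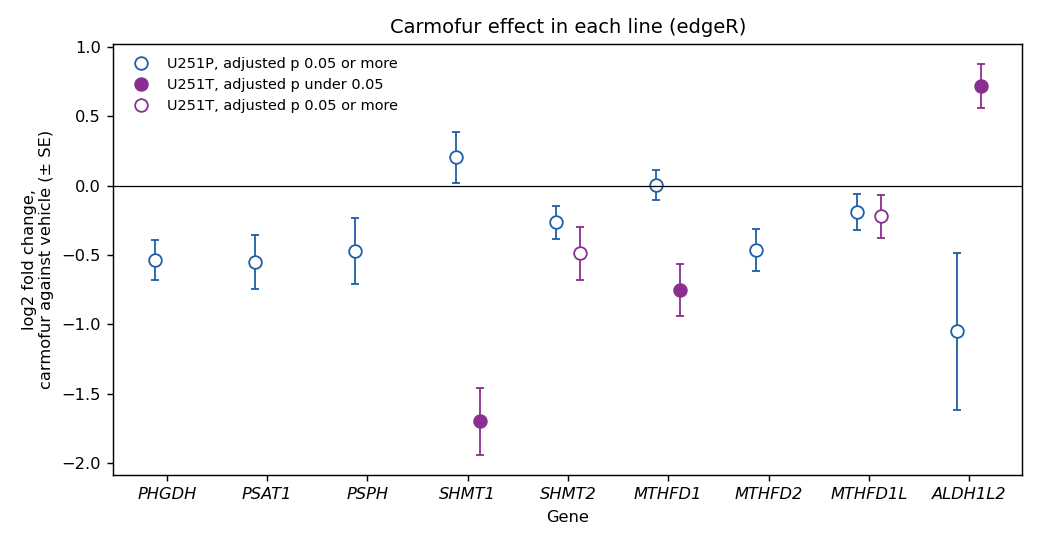
Log2 fold change of carmofur against vehicle (edgeR) for each gene in U251P (blue) and in U251T (purple), with bars of 1 SE. Filled symbols have an adjusted p-value under 0.05. Filled symbols occur in U251T alone, for SHMT1 and MTHFD1 below 0 and ALDH1L2 above 0, and 4 genes have no U251T symbol because their counts were too low to be tested.

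The U251P differences rested largely on the libraries numbered 2. Carmofur replicate 2 was the lowest of the 6 libraries for 7 of the 9 genes, and vehicle replicate 2 was the highest for 6. Carmofur replicate 2 also had the highest share of counts from the mitochondrial genome, 26.2% against 19.5 to 23.9% in the other U251P libraries, and the part of this in the result was not tested. When carmofur replicate 2 was left out, the log2 fold change was -0.36 for PHGDH, -0.30 for PSAT1 and -0.15 for SHMT2. When vehicle replicate 2 was left out, it was -0.29 for MTHFD2, -0.24 for PSPH and -0.05 for MTHFD1L. With both left out, an alternative chosen after the values were seen, PHGDH was at -0.28 (unadjusted p = 0.0419 in edgeR), PSAT1 and MTHFD2 at -0.15, PSPH at -0.03 and SHMT2 at -0.09, and 0 of the 9 genes passed. SHMT1 was at 0.31 and ALDH1L2 at -0.83 in that fit. ALDH1L2 ranged from -1.67 without carmofur replicate 3 to -0.45 without vehicle replicate 3.

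**Figure D3:**
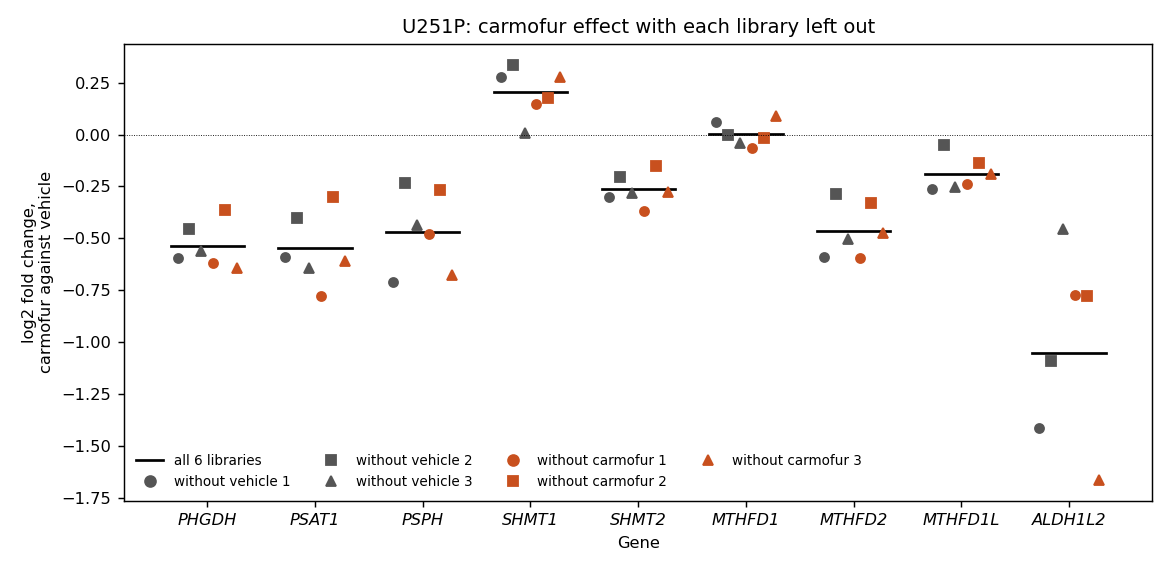
Log2 fold change of carmofur against vehicle in U251P (edgeR) with all 6 libraries (black lines) and with 1 library omitted at a time (gray symbols for a vehicle, orange symbols for a carmofur library). Squares, which leave out a replicate 2, lie nearest to 0 for PHGDH, PSAT1, PSPH, SHMT2, MTHFD2 and MTHFD1L. PHGDH stays between -0.64 and -0.36.

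In U251T the same comparison gave 3 genes past the test among the 5 of the 9 that could be tested, while 1231 of 7204 genes (17.1%) passed. SHMT1 and MTHFD1, the cytosolic enzymes, fell with carmofur, ALDH1L2 rose, and SHMT2 and MTHFD1L did not pass. For those 3 genes the groups had no overlap in CPM, nor for 32.3% of all genes tested. These 3 calls held under each alternative tried, including each library left out. Marker genes also moved with carmofur in U251T. Of the 8 glioma and astrocytic markers tested, VIM (log2 fold change -0.67) and GFAP (-0.96) fell and CD44 (0.39), FN1 (0.56) and SOX9 (0.55) rose, and the summed level of the list of 12 was 13523 to 16502 CPM with vehicle and 10338 to 12556 CPM with carmofur. Of the 3 fibroblast and pericyte markers tested COL1A1 rose (0.40), and the sum of that list of 5 was 1744 to 2051 CPM with vehicle and 2306 to 2388 CPM with carmofur. The part of these differences in the results for the 9 genes was not tested. In bulk RNA, fewer cells of a type and less RNA per cell cannot be told apart.

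SHMT1 was at 118, 74.2 and 120 CPM with vehicle and at 33, 26.9 and 36.5 CPM with carmofur in U251T. The highest carmofur library was below the lowest vehicle library, and the means were 104 ± 26.0 CPM and 32.1 ± 4.86 CPM (SD, n = 3 each). The log2 fold change was -1.70 (SE 0.244, edgeR adjusted p = 8.39e-05), between -1.92 and -1.59 with each library left out. MTHFD1 was at 137, 160 and 138 CPM with vehicle and at 94.9, 93.7 and 65.2 CPM with carmofur, again without overlap. Its log2 fold change was -0.75 (SE 0.186, edgeR adjusted p = 0.00867). ALDH1L2, at 111, 133 and 117 CPM with vehicle, reached 194, 211 and 198 CPM with carmofur. The 3 carmofur libraries were all above the vehicle libraries, with means of 201 ± 9.17 CPM against 120 ± 11.3 CPM (SD, n = 3 each), and the log2 fold change was 0.72 (SE 0.160, edgeR adjusted p = 0.00406).

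SHMT2 was at 208, 283 and 178 CPM with vehicle and at 144, 185 and 159 CPM with carmofur in U251T, with vehicle replicate 3 below carmofur replicate 2. Its log2 fold change of -0.49 (SE 0.190) had an edgeR adjusted p-value of 0.0881, and it was -0.24 without vehicle replicate 2. SHMT2 passed at an edgeR adjusted p of 0.0219 without the filter on low counts, of 0.0323 without vehicle replicate 3 and of 0.0403 without carmofur replicate 2. MTHFD1L was at 221, 222 and 200 CPM with vehicle and at 188, 206 and 154 CPM with carmofur. Its log2 fold change was -0.22 (95% interval -0.55 to 0.11, edgeR adjusted p = 0.378). The 4 genes below the filter had few counts in each library. The counts of PHGDH were 5, 16 and 3 in vehicle and 6, 5 and 2 in carmofur. Those of PSAT1 were 3, 8 and 2 against 1, 3 and 3, and those of PSPH were 4 in each vehicle library against 0, 2 and 2. For MTHFD2 they were 1, 11 and 2 in vehicle and 3, 0 and 4 in carmofur. The 4 genes were not tested in this comparison. A count of 0 allows a level of up to 3.09 CPM for PSPH in carmofur replicate 1 and up to 2.78 CPM for MTHFD2 in carmofur replicate 2, for counting error only.

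Whether the lines responded differently was tested as the interaction of line and carmofur over all 12 libraries, in which 560 of 13070 genes (4.28%) passed. SHMT1 and ALDH1L2 passed among the 9. For SHMT1 the log2 fold change was lower in U251T than in U251P in the joint fit (interaction -1.95, SE 0.311, edgeR adjusted p = 5.75e-05), and the call held under each alternative. For ALDH1L2 the interaction was 1.72 (SE 0.494, edgeR adjusted p = 0.0374), which rests on 62 counts over the 6 U251P libraries. Its edgeR adjusted p-value was 0.406 and its interaction 1.10 without U251P vehicle replicate 3, and the call was also lost without U251P vehicle replicate 2, U251P carmofur replicates 1 or 2, U251T vehicle replicate 1 or U251T carmofur replicates 1 or 2. It was 0.153 with both U251P replicates 2 left out, which was chosen after the values were seen. MTHFD1, with an interaction of -0.82 (SE 0.251), had an edgeR adjusted p-value of 0.0563, and between 0.00121 and 0.178 over the alternatives. The interaction was -0.30 (SE 0.269) for SHMT2 and -0.09 (SE 0.245) for MTHFD1L, and neither passed. That of SHMT2 was -0.0019 without U251T vehicle replicate 2. For PHGDH, PSAT1, PSPH and MTHFD2 the SE was between 0.551 and 0.989, which is above the size of their U251P log2 fold changes.

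PHGDH, PSAT1, PSPH, MTHFD2, MTHFD1L and ALDH1L2 had larger log2 fold changes between the lines than with carmofur, where tested. SHMT1 and SHMT2 did so in vehicle only, and MTHFD1 in neither condition. In vehicle, 8 of the 9 genes passed the test between the lines, 4 higher and 4 lower in U251T. Of all genes, 10474 of 12047 (86.9%) passed, 39.3% higher and 47.6% lower, so that the share of the 9 was near that of all genes. The libraries of the lines did not overlap for any of the 9, nor for 86.8% of all genes tested. PSAT1 was at 285 ± 55.1 CPM in U251P and 2.89 ± 0.615 CPM in U251T (SD, n = 3 each), with a log2 difference of -6.67 (SE 0.253, edgeR adjusted p = 5.95e-20). MTHFD2 was at 312 ± 69.8 CPM and 2.74 ± 1.71 CPM, with a log2 fold change of -6.71 (SE 0.278, edgeR adjusted p = 4.68e-19). PHGDH, at 137 ± 15.8 CPM and 4.94 ± 0.969 CPM, and PSPH, at 41.2 ± 14.1 CPM and 3.85 ± 2.90 CPM, had log2 fold changes of -4.76 (SE 0.238) and -3.94 (SE 0.411). All 3 genes of serine synthesis thus stood lower in U251T. ALDH1L2 stood the other way, at 2.89 ± 1.59 CPM in U251P and 120 ± 11.3 CPM in U251T, a log2 fold change of 5.31 (SE 0.266, edgeR adjusted p = 4.03e-17). SHMT1, at 23.6 ± 6.27 CPM and 104 ± 26.0 CPM, and MTHFD1L, at 69.9 ± 12.9 CPM and 214 ± 12.5 CPM, had log2 fold changes of 2.07 (SE 0.201) and 1.60 (SE 0.148). The mitochondrial genes thus did not move as a block, since MTHFD2 was lower and MTHFD1L and ALDH1L2 were higher in U251T.

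The line differences moved with the filter on genes and with single libraries. Over the alternatives, SHMT1 ranged from 1.43 to 2.18 and MTHFD1L from 0.96 to 1.68 in vehicle, and both passed in each. PHGDH, PSAT1, PSPH, MTHFD2 and ALDH1L2 could not be tested when genes needed at least 10 counts in every library. SHMT2 was at 147 ± 12.7 CPM in U251P and 223 ± 54.1 CPM in U251T with vehicle (log2 fold change 0.60, SE 0.159, edgeR adjusted p = 0.000881), but its log2 fold change was -0.03 when genes needed at least 10 counts in every library, and 0.23 (edgeR adjusted p = 0.194) without U251T vehicle replicate 2. It also no longer passed without U251P vehicle replicate 3 (0.52, edgeR adjusted p = 0.0657). MTHFD1, at 121 ± 10.3 CPM and 145 ± 12.9 CPM, had a log2 fold change of 0.24 (SE 0.146, edgeR adjusted p = 0.12), which was -0.12 without a filter. With at least 10 counts in every library it passed in the other direction, at -0.39 (edgeR adjusted p = 0.0128), and without U251T vehicle replicate 2 it was 0.0067. The median log2 fold change of all genes tested was -0.33, and on shared genes that filter moved the median by -0.63 and the lack of a filter moved it by -0.36.

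With carmofur, 7 of the 9 genes passed between the lines, 2 higher and 5 lower in U251T, against 10051 of 11667 genes (86.1%, with 37.1% higher and 49.1% lower). The libraries of the lines did not overlap for 8 of the 9 genes and for 86.4% of all genes. SHMT1 was at 26.1 ± 3.05 CPM in U251P and 32.1 ± 4.86 CPM in U251T (SD, n = 3 each), with overlapping libraries and a log2 fold change of 0.04 (SE 0.250, 95% interval -0.45 to 0.54), and its sign was not stable. It was -0.03 with DESeq2 and -0.11 without U251P carmofur replicate 3, and it passed as lower in U251T, at -0.67 (edgeR adjusted p = 0.00933), when genes needed at least 10 counts in every library. MTHFD1 was at 119 ± 15.5 CPM and 84.6 ± 16.8 CPM, a log2 fold change of -0.64 (SE 0.172, edgeR adjusted p = 0.000569). That value ranged from -1.35 to -0.53 over the alternatives. ALDH1L2 was at 1.48 ± 1.02 CPM and 201 ± 9.17 CPM, a log2 fold change of 6.98 (SE 0.254). PHGDH, PSAT1, PSPH and MTHFD2 had log2 fold changes between -6.42 and -4.28, and MTHFD1L had 1.44 (SE 0.161). That of MTHFD1L ranged from 0.72 to 1.52 over the alternatives. SHMT2, at 121 ± 21.2 CPM and 163 ± 20.8 CPM, did not pass (log2 fold change 0.24, SE 0.160), and it was at 0.014 without U251T carmofur replicate 2. With at least 10 counts in every library it passed as lower in U251T, at -0.48 (edgeR adjusted p = 0.00778).

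**Figure D4:**
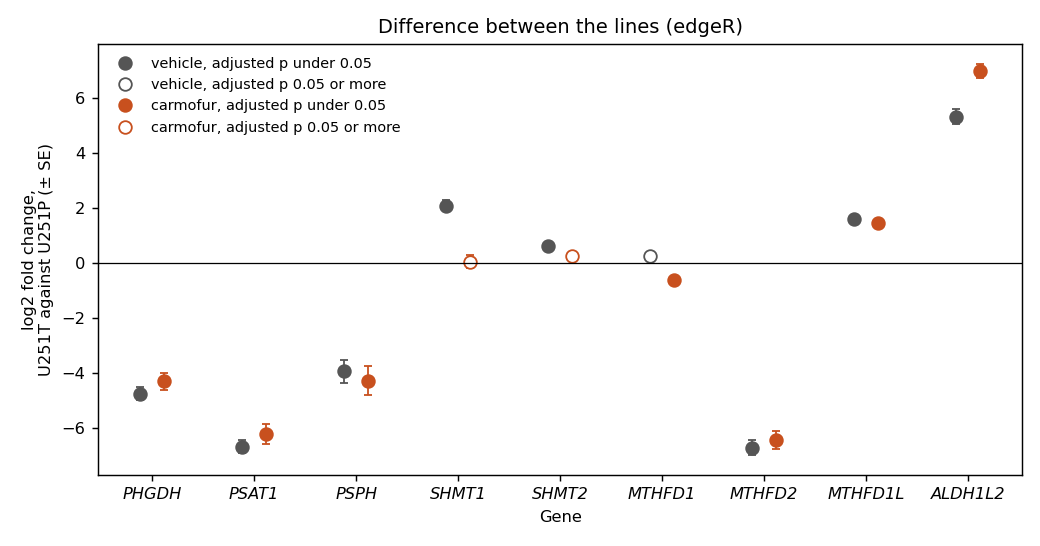
Log2 fold change of U251T against U251P (edgeR) for each gene in vehicle (gray) and in carmofur (orange), with bars of 1 SE, which are smaller than the symbol for some genes. PHGDH, PSAT1, PSPH and MTHFD2 lie between -6.71 and -3.94 in both conditions, ALDH1L2 lies at 5.31 and 6.98, and SHMT1 at 2.07 in vehicle and 0.04 in carmofur.

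Counts assigned to processed copies of these genes also differed between the lines. The table holds 14 identifiers of pseudogenes named for a gene of the 9. In U251P they had 9 counts beside 29366 counts of the 9 genes, and in U251T 137 beside 5660. MTHFD2 had 7769 counts in U251P, with 8 on its 7 pseudogenes, whereas in U251T it had 21 with 61 on the pseudogenes. PSAT1 had 6928 and 0 in U251P, and 20 and 20 in U251T. MTHFD1 had 3630 and 0 in U251P, and 924 and 48 in U251T. Its pseudogene had 3, 24 and 3 counts in the U251T vehicle libraries and 6, 9 and 3 in the carmofur libraries. PHGDH had 37 counts and PSPH 16 in U251T, with 0 on pseudogenes in either line. The U251T levels of PSAT1 and MTHFD2, and to a lesser degree MTHFD1, are uncertain, since reads of near-identical copies can be split in counting. The part of this in the MTHFD1 call was not tested. ALDH1L2 overlaps C12orf45 on the opposite strand (709 counts in U251P and 620 in U251T), MTHFD1 overlaps ZBTB25 in the same way (341 and 2 counts), and whether counting used strand is not stated.

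Other genes of the pathway were listed with the 9 and compared in the same fits. In U251P none of the genes on the 6 lists passed the test. The ATF4 list, of ATF4 and genes of its amino acid response, had 17 of 18 genes lower with carmofur, against 50.1% of all genes tested. Of the 18, 7 had an unadjusted p under 0.05, against 3.52% of all genes, and the median log2 fold change was -0.51 against -0.00. The list was also chosen with earlier results of these data known, so that these shares are no test of it. The smallest p-values on it belonged to PCK2, the mitochondrial phosphoenolpyruvate carboxykinase (log2 fold change -1.04, SE 0.361), and TRIB3, a pseudokinase that restrains ATF4 (-1.04, SE 0.380). ATF4 itself was at -0.50 (SE 0.241). The summed level of the ATF4 list was 1371, 2703 and 2186 CPM in the vehicle libraries and 1373, 1014 and 2020 CPM in the carmofur libraries, with the lowest value again in carmofur replicate 2 and the highest in vehicle replicate 2. The sum of PHGDH, PSAT1 and PSPH was 426, 557 and 409 CPM with vehicle and 389, 204 and 349 CPM with carmofur, with its extremes in the same libraries.

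The other lists had medians close to 0 in U251P. Of 11 further folate enzymes and carriers tested, 8 were higher and 3 lower (median 0.06), with SLC19A1, the reduced folate carrier, at 0.32 (SE 0.155) and FPGS, which retains folates in the cell, at -0.16 (SE 0.132). Of 13 genes of glycine cleavage and serine use, 10 were lower (median -0.04), with SERINC2, a protein linked to the placing of serine into lipids, at -0.69 (SE 0.230) and SLC1A5, a neutral amino acid transporter, at -0.20 (SE 0.118). In the methionine cycle and transsulfuration, 5 of 7 were lower (median -0.02), with CTH, which makes cysteine from cystathionine, at -0.90 (SE 0.410) and MTAP, of methionine salvage, at -0.12 (SE 0.0997). Of 12 purine synthesis genes, 8 were lower (median -0.03), with PPAT at -0.18 (SE 0.127) and ATIC at -0.10 (SE 0.103). Among 6 other regulators of serine synthesis, 3 were lower (median -0.01), with NFE2L2, the oxidative stress factor, at -0.29 (SE 0.118).

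In U251T the ATF4 list had 5 of 7 tested genes higher past the test (median log2 fold change 1.35, against 0.01 over all genes tested), where 8.88% of all genes rose. The rest of its 18 genes had too few counts to be tested, and their mean CPM went both ways. It was lower with carmofur for ASNS, PCK2, CEBPB, SLC3A2, CHAC1 and NUPR1, and higher for ATF4, ATF5, TRIB3, SLC7A5 and STC2. ATF3, a stress-induced factor, rose by 2.06 (SE 0.254, edgeR adjusted p = 2.29e-05), VLDLR, a lipoprotein receptor, by 1.47 (SE 0.186) and SESN2, a leucine sensor upstream of mTOR, by 1.35 (SE 0.185). ATF4 itself had 12 counts over the 3 vehicle libraries of U251T and 5 over the carmofur libraries, against 5121 and 4161 in U251P. The summed level of the list was 341, 280 and 375 CPM with vehicle and 654, 707 and 800 CPM with carmofur. Of 8 purine synthesis genes tested 3 fell (median -0.47), where 8.2% of all genes fell, namely PAICS (log2 fold change -1.05, SE 0.200), PRPS1 (-0.71, SE 0.203) and IMPDH2 (-0.48, SE 0.139), enzymes of the purine ring, of its ribose precursor and of guanine nucleotides. Of 8 genes of glycine cleavage and serine use 3 rose (median 0.28), which were SERINC1 (0.77, SE 0.177), SPTLC1, a subunit of the enzyme that joins serine to a fatty acid in sphingolipid synthesis (0.68, SE 0.178), and GCSH, the carrier protein of glycine cleavage (0.93, SE 0.304). Among 5 regulators MDM2, a ubiquitin ligase, rose by 0.92 (SE 0.146, edgeR adjusted p = 0.000238), with a median of 0.14. None of the 2 folate genes and 4 methionine cycle genes tested passed, with medians of -0.22 and -0.31.

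Over the 6 U251P libraries, the genes whose log2 CPM followed the mean of the 9 most closely, among 6158 genes with a mean of at least 20 CPM, were EFR3A (r = 0.987, rho = 0.943), YARS1 (r = 0.983, rho = 0.943), SGMS1 (r = 0.983, rho = 1), FDPS (r = 0.981, rho = 0.829) and RHOQ (r = 0.981, rho = 0.943). These are the highest of 6158 values over 6 points, for which no chance level was computed. The points share their libraries and depth, and the values describe these 6 libraries only.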

How the data were processed

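Gene expression was measured in 12 libraries, 3 in each of 4 groups taken from the labels. The authors made 3′ tag libraries with QuantSeq FWD, sequenced single-end reads of 75 bases and processed them with the BlueBee pipeline. Whole-number counts per Ensembl gene were deposited, without normalization, on hg38 per the labels. The counting tool and annotation release are not given in the sources used here. A tag marks the 3′ end, and longer transcripts do not give more tags. How PCR copies were counted is not stated, and floors cover counting error only.

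The 9 genes, the lists, motifs and tests were chosen with earlier results of these data known. Symbols were found for 56104 of 60107 identifiers. Groups were compared with edgeR (version 4.0.16) in R (version 4.3.3) by its quasi-likelihood test, with TMM normalization, filterByExpr (minimum count 10, total 15) and Benjamini-Hochberg adjustment over all genes tested at 0.05. Levels are CPM, counts per 1000000 counts of the library without TMM factors. Standard errors are the log2 fold change divided by the square root of F, and intervals are 95%. An exact test of 3 libraries against 3 cannot give a two-sided p under 0.1, so that p-values come from fits across all genes. The alternatives were DESeq2 (version 1.42.0), upper-quartile normalization, no filter, at least 10 counts in every library, a replicate block, all 12 libraries in a single fit, an adjusted p under 0.1, and each library left out. The fits of carmofur against vehicle in each line and of the lines in vehicle were run on simulated data. The interaction and the lines in carmofur were not. Few genes were changed in the simulation, unlike in the real line comparison. No pair of replicates differed by less than sampling noise. Named beside the 9 genes were the 2 genes of each list with the smallest p-value in U251P (1 of them is not reported here), up to 3 per list and direction with an adjusted p under 0.05, ASAH1, pseudogenes of the 9, and the 5 genes most like their mean. ATF4 was named after its values were seen. Figures were drawn with matplotlib (version 3.10.9) from tables made with pandas (version 2.3.3) in Python (version 3.11.15).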

Additional observations from a re-analysis of the deposited data

Results flagged for a closer look

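The effect of carmofur on SHMT1 differed between the lines by a test of the difference itself. The log2 fold change was 0.20 (SE 0.185) in U251P and -1.70 (SE 0.244) in U251T, and the interaction was -1.95 (SE 0.311, edgeR adjusted p = 5.75e-05). In U251T each of the 3 carmofur libraries lay below each vehicle library, and in U251P the groups overlapped. The interaction stayed between -2.15 and -1.75 over the alternatives. With vehicle SHMT1 stood at 23.6 ± 6.27 CPM in U251P and 104 ± 26.0 CPM in U251T, and with carmofur at 26.1 ± 3.05 CPM and 32.1 ± 4.86 CPM (SD, n = 3 each).

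ALDH1L2 also differed, with a log2 fold change of -1.05 (SE 0.563) in U251P and 0.72 (SE 0.160) in U251T, and an interaction of 1.72 (SE 0.494, edgeR adjusted p = 0.0374). The edgeR adjusted p-value ranged from 0.00506 to 0.406 over the alternatives, and 62 counts in all stand behind the U251P value.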

How the results depend on the processing

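The 3 calls in U251T (SHMT1, MTHFD1, ALDH1L2) and the SHMT1 interaction kept direction and threshold under each alternative tried. In U251P the count of genes past the threshold was 0, and 19 with 2 of the 9 genes without a filter on low counts, 1 with the replicate block, and 0 to 1 with each library left out. Same-numbered libraries had r between -0.0298 and 0.279 in U251P and between 0.076 and 0.334 in U251T, not all above 0.1. Not every library correlated best with its own number. Whether the numbers pair the libraries is not settled by these values, and the main fits used no pairing. With the replicate block, 2078 genes passed in U251T against 1231 and 1156 in the interaction against 560, and SHMT2 in U251T (adjusted p = 0.00131) and the MTHFD1 interaction (adjusted p = 0.00121) passed. With each library left out, the interaction gave 367 to 721 genes, with 1 to 3 of the 9, and 1 of the 9 when both U251P replicates 2 were left out. With at least 10 counts in every library, 3737 genes and 3 of the 9 passed between the lines in vehicle, and 3348 genes and 4 of the 9 in carmofur, where fewer genes were tested. The scaling alternative DESeq2 moved the median of all genes by 0.19 in the interaction and by -0.15 between the lines in vehicle.

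These log2 fold changes changed sign. MTHFD1 in U251P was -0.00164 with the replicate block, -0.028 with both replicates 2 left out, and between -0.064 and 0.091 with each library left out. Between the lines in vehicle, MTHFD1 was -0.12 without a filter and -0.39 with at least 10 counts in every library, and SHMT2 was -0.029 with the latter. In carmofur, SHMT1 was -0.029 with DESeq2, -0.18 without a filter, -0.67 with at least 10 counts in every library, -0.044 in a fit of all 12 libraries, and -0.11 to 0.082 with each library left out, and SHMT2 was -0.48 with at least 10 counts in every library. With each library left out, the interaction ranged from -0.033 to 1.02 for PSAT1, -1.0 to 0.44 for PSPH, -0.61 to 1.28 for MTHFD2 and -0.25 to 0.032 for MTHFD1L. The cause was not tested. Few counts limit PHGDH, PSAT1, PSPH and MTHFD2 in U251T, with 16 to 37 counts each over 6 libraries, and ALDH1L2 in U251P, with 62.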
